A study of Caenorhabditis elegans with 12 samples.

Results

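The Sra superfamily is a group of seven-transmembrane chemoreceptor genes of the nematode Caenorhabditis elegans, made up of the families sra, srab, srb and sre. Its members were taken here as every gene with a symbol of 1 of these families and a probe set assigned to that gene alone. This gave 125 genes of the 17118 genes with such a probe set: 35 sra, 24 srab, 17 srb and 49 sre genes. Each of the 125 genes had 1 probe set, and none of these carried the array's suffix for probes shared between transcripts, which 4241 of the 17118 genes had.

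Gene expression was measured on Affymetrix arrays in whole embryos at the 3-fold stage, when the embryo has elongated inside the eggshell and its sensory neurons are forming cilia. The 3 genotypes were strain JT6924 with daf-19(m86) and daf-12(sa204), strain JT204 with daf-12(sa204), and strain JT5010, labelled N2 Bristol, as wild type. Both mutant strains carry daf-12(sa204), so the daf-19 daf-12 double mutant differs from the daf-12 mutant by daf-19(m86). Arrays 1 and 2 of the double mutant were identical and were counted as 1 array, called 1-2 here, which left 3, 4 and 4 arrays of the 3 genotypes in the order named.

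Chemoreceptors of this kind are G protein-coupled receptors. Most are made in a few pairs of sensory neurons and are carried to the cilium at the tip of the dendrite, where odorants and pheromones are met. DAF-19 is the RFX transcription factor that turns on the genes that build the cilium, and without it sensory neurons form without cilia. DAF-12 is a nuclear hormone receptor of the dauer decision, and its loss keeps daf-19 mutants from arresting as dauer larvae. In whole embryos, fewer cells of a type and less RNA per cell cannot be told apart.

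All levels are log2 values as deposited, and their precision is limited by how many arrays there are. Whether replicates were separate cultures is not given in the labels, so p-values measure only the spread between these samples, which may be technical. Replicates 1 and 2 differed from replicates 3 and 4 in a way not named in the labels. The 24 probe sets for bacterial poly-A spike-ins averaged 4.16 to 4.32 on replicates 1 and 2, where no spike was seen, and 7.16 to 10.21 on replicates 3 and 4; these are called the 2 sets of arrays. The daf-19 transcript averaged 8.52 ± 0.32 in the double mutant (SD, n = 3), 9.97 ± 0.15 in the daf-12 mutant and 10.14 ± 0.26 in wild type (n = 4 each). Lists of tissue markers were above the background level defined in the next paragraph on all 11 arrays for 11 of 12 pan-neuronal, 7 of 7 body wall muscle and 7 of 7 intestine genes. The same held for 9 of 11 regulators of sensory neuron fate, 4 of 7 amphid glia, 6 of 8 early embryo and 5 of 6 sperm genes. The sperm probe sets carried the array's suffix for shared probes. Since sperm and early embryo genes also passed, passing does not by itself show that cells of the 3-fold embryo made the transcript. For genes of the cilium itself it held for 5 of 14, and the other 9 passed on at least 1 array. These 9 passed on no double mutant array. Among them ifta-2, che-13, osm-1, osm-5 and che-2 passed on every wild type array, and che-11, dyf-1, dyf-2 and bbs-2 did not.

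Few Sra superfamily genes were above background in 3-fold embryos. Background was read from the spike-in probe sets on the 5 arrays where no spike was seen, which gave 120 values with a median of 4.02 and a highest value of 5.60. Their 95th percentile, 5.41, was the threshold, and a gene was counted in a genotype when every array of that genotype lay above it. By this rule 9 of 125 genes were above background in the double mutant, 6 in the daf-12 mutant and 7 in wild type. The 9 of the double mutant held all genes counted in any genotype, or 7.2% of the superfamily, against 60.1% of all genes. On all 11 arrays 6 genes passed (4.8%), and 81 genes (64.8%) passed on none, against 53.0% and 27.2% of all genes. The remaining genes passed on some arrays.

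The passing genes were spread over the 4 families. In any genotype they numbered 3 of 35 sra, 2 of 24 srab, 1 of 17 srb and 3 of 49 sre genes. The gene means over 11 arrays had a median of 4.48 in sra, 4.28 in srab, 4.33 in srb and 4.76 in sre, all under the threshold. The shares were also low in other chemoreceptor superfamilies. Of 300 Srg superfamily genes 5.67% were above background in any genotype, of 566 Str superfamily genes 8.83%, and of 270 genes of the srbc, srsx, srw and srz families 4.81%. These shares are descriptions, since genes are not replicates and a probe set's background depends on its own probes.

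**Figure D1:**
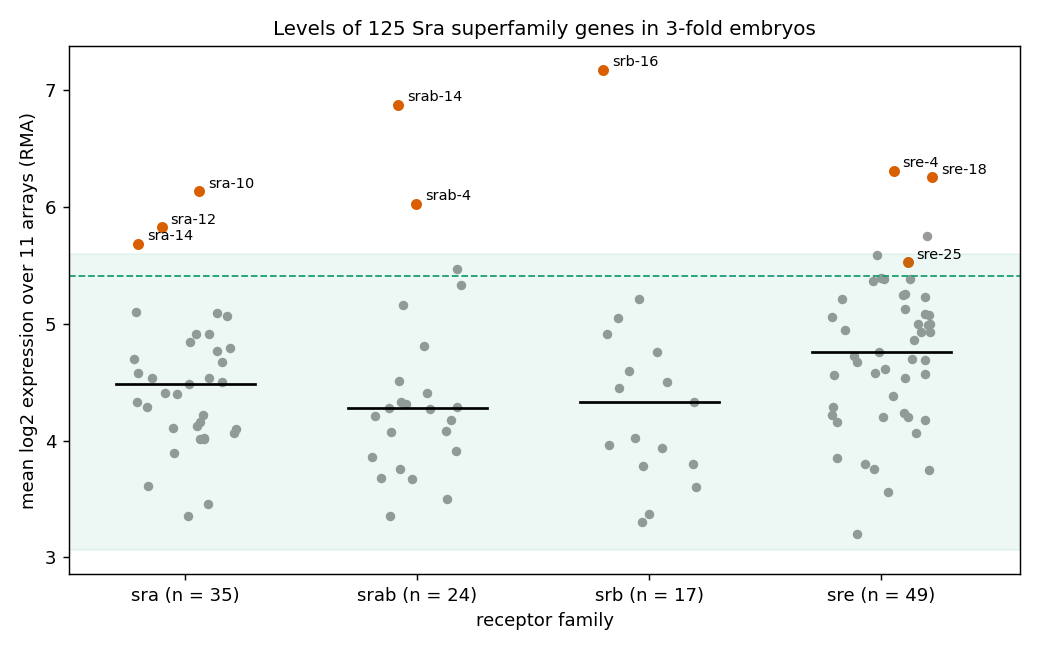
Mean log2 expression over 11 arrays (vertical axis) of the 125 genes, by family. Bars are family medians, and the dashed line is the threshold of 5.41. The shaded band spans the spike-in control values on the 5 arrays where no spike was seen. The named orange points are the 9 genes above the threshold on every array of at least 1 genotype, and 3 grey points with a mean above the line failed on some array of each genotype.

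The 6 genes above background on every array were srb-16 (probe set 181948_at), srab-14 (187501_at), sre-4 (177645_at), sre-18 (185170_at), sra-10 (188479_at) and srab-4 (183170_at). The gene srb-16, reported with other srb genes in the guidance of sperm, had 7.59, 6.51 and 6.55 in the double mutant, 6.42, 7.29, 7.85 and 8.19 in the daf-12 mutant, and 7.12, 7.35, 6.60 and 7.45 in wild type. The srab-14 probe set gave 7.30, 6.69 and 6.60 in the double mutant, 6.23, 6.29, 7.87 and 7.77 in the daf-12 mutant, and 6.41, 6.78, 6.39 and 7.29 in wild type. For both genes the genotypes overlapped, and the daf-12 mutant held both the highest and the lowest of the 11 values.

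The gene sra-10, seen with reporter genes in neurons that include the oxygen-sensing URX pair, had 6.52, 5.43 and 5.50 in the double mutant, 5.66, 6.20, 6.55 and 7.09 in the daf-12 mutant, and 6.12, 6.67, 5.64 and 6.11 in wild type. Arrays 3 and 4 of the double mutant were its lowest values, just above the threshold. For sre-4 the values were 7.37, 5.54 and 5.92 in the double mutant, 6.10, 6.25, 6.51 and 6.64 in the daf-12 mutant, and 6.22, 6.61, 5.56 and 6.68 in wild type. Here the double mutant held both the highest and the lowest value.

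The other 2 varied in other ways. The sre-18 values were 6.47, 6.19 and 5.79 in the double mutant, 6.39, 6.81, 6.06 and 5.64 in the daf-12 mutant, and 7.26, 6.09, 6.32 and 5.79 in wild type. The srab-4 values were close together, at 6.01, 5.97 and 6.03 in the double mutant, 5.89, 6.14, 6.16 and 5.89 in the daf-12 mutant, and 6.08, 5.75, 6.63 and 5.78 in wild type. In both genes the 3 genotypes overlapped, and the highest value was a wild type array.

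Close to the threshold, sra-14 (178217_at) passed in the double mutant and wild type, and sra-12 (188488_at) and sre-25 (185930_at) in the double mutant. The sra-14 means were 5.81 ± 0.30 in the double mutant (SD, n = 3), 5.59 ± 0.33 in the daf-12 mutant and 5.68 ± 0.25 in wild type (n = 4 each). The gene sra-12 had 6.35, 5.58 and 5.53 in the double mutant, 6.35, 6.30, 5.25 and 5.10 in the daf-12 mutant, and 6.53, 5.90, 5.82 and 5.40 in wild type, so that daf-12 arrays 3 and 4 and, narrowly, wild type array 4 missed the threshold. The genes sre-33 and sre-26 passed on 7 of 11 arrays each and in no genotype. The counts of the 3 genotypes differ by sra-14, sra-12 and sre-25 alone, and the double mutant had 3 arrays to pass where the others had 4. Counted by group means above the threshold in place of every array, the order was the other way, with 12 genes in the double mutant, 14 in the daf-12 mutant and 16 in wild type.

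**Figure D2:**
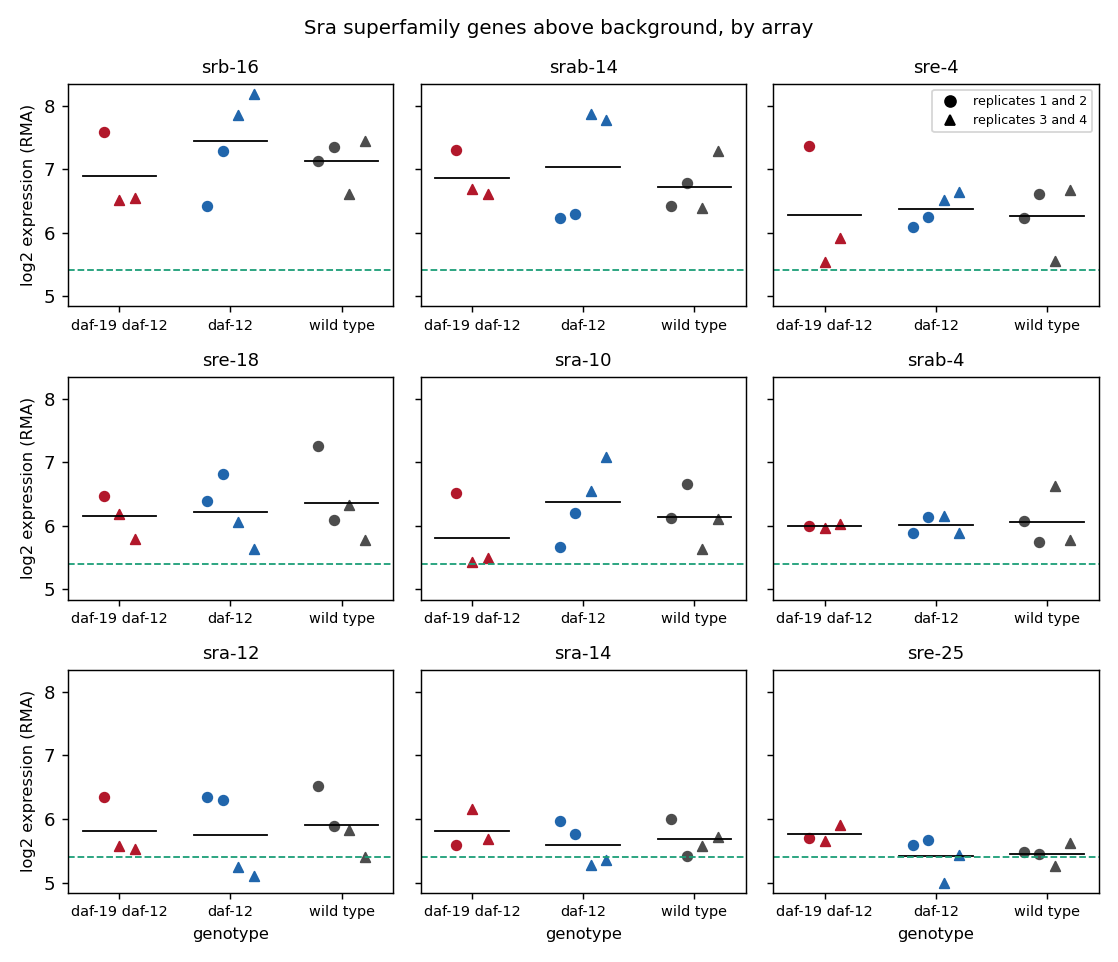
Log2 expression (vertical axis) of the 9 genes above background on each array, by genotype; circles are replicates 1 and 2, triangles replicates 3 and 4, bars are group means and the dashed line is the background threshold of 5.41. The genotypes overlap in 8 of the 9 panels, and in sre-25 the 3 double mutant values of 5.66 to 5.91 lie above the 4 wild type values of 5.27 to 5.63.

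Receptors with a known site of expression or role were mostly at background. Of 11 such genes, srb-16 and sra-10 were above background, and 9 were not, 6 of them on no array. The gene sra-6, expressed in the nociceptive neuron ASH and used widely to mark it, had 5.39, 4.70 and 4.68 in the double mutant, 5.47, 5.39, 4.78 and 4.78 in the daf-12 mutant, and 5.46, 5.10, 5.11 and 5.17 in wild type, passing on 2 arrays. The gene srb-6, a receptor of ADL, ASH and the phasmid neurons needed to avoid bacterial compounds, lay between 3.51 and 4.24 on all arrays. Genes sra-7 and sra-9 of the ASK neuron lay between 4.15 and 4.87 and between 3.96 and 4.86. Likewise sre-1 of the ADL neuron reached 5.18 at most, and sra-13 of the olfactory neurons AWA and AWC reached 4.44. For the genes that passed on no array a transcript was not detectable over background in whole embryos, which does not show that it is absent.

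Single arrays passed in sra-11 (1) and srb-13 (2). For sra-11, expressed in interneurons that include AIY, values were 4.91, 4.54 and 4.45 in the double mutant, 4.51, 5.03, 5.40 and 5.61 in the daf-12 mutant, and 4.86, 4.84, 4.57 and 5.30 in wild type. For srb-13, which has a reported part in sperm guidance, they were 4.98, 4.65 and 4.57 in the double mutant, 4.65, 4.88, 5.63 and 5.58 in the daf-12 mutant, and 4.88, 4.54, 4.59 and 5.15 in wild type. In both genes arrays 3 and 4 of the daf-12 mutant were the highest. The gene sra-1 lay between 3.65 and 4.38.

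The passing genes were also placed among their chromosomal neighbours. By gene order in RefSeq's table of assembly WBcel235, 79 of the 125 genes lie in 25 runs of adjacent members, and 46 stand alone. Runs were read over the 125 measured genes only, so a family gene that is not among them breaks a run. Of the 9 genes above background 3 were in runs and 6 stood alone, and no run held more than 1 of them. With 3 such genes and 25 runs, this cannot show whether neighbours are expressed together. The longest run, of the 9 genes sra-2, sra-16, sra-9, sra-8, sra-3, sra-4, sra-7, sra-5 and sra-6, held none, and its gene means were 3.36 to 5.09. The run of srb-16, srb-12 and srb-13 held 1: srb-12 was under the threshold on every array, with a mean of 4.02.

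Loss of daf-19 was asked about by comparing double mutant with daf-12 mutant embryos. No Sra superfamily gene passed the test. limma called 0 of 125 at an adjusted p under 0.05, where it called 13 of 22548 probe sets (0.0577%), all of them lower in the double mutant. Blocking on the set of arrays, it called 0 members and 0.213% of probe sets, and blocking on the replicate number 0 and 0.0621%. At an unadjusted p under 0.05, 3 members were lower and 0 higher, against 2.39% and 2.53% of all probe sets. The median log2 difference was -0.06 over the members and -0.02 over all genes. It was -0.05 over Srg genes, -0.03 over Str genes and -0.02 over the srbc, srsx, srw and srz families. Differences of the members ran from -0.85 to 0.38, and 87 of 125 members (69.6%) were below 0, against 53.8% of all genes. The 95% interval lay within a doubling in either direction for 110 members (88.0%), against 74.8% of all genes, but most members were at background, where a narrow interval sets no limit on a change of the transcript.

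The lowest differences were in sre-3, sra-27, sre-11 and sra-10. The sre-3 values were 4.79, 3.78 and 3.90 in the double mutant, 4.51, 4.89, 5.62 and 5.02 in the daf-12 mutant, and 4.62, 4.43, 4.78 and 5.24 in wild type. Double mutant arrays 3 and 4 lay below all others, while array 1-2 lay among them. Its log2 difference was -0.85 ± 0.31 (SE, 95% interval -1.54 to -0.17, limma adjusted p = 0.913). The sre-11 values were 4.997, 4.288 and 4.578 in the double mutant and 5.170, 5.329, 5.165 and 5.177 in the daf-12 mutant, with a difference of -0.59 ± 0.18 (adjusted p = 0.685). These groups did not overlap, but the gene was under the threshold on all 11 arrays. The sra-27 difference was -0.63 ± 0.25 (adjusted p = 0.952).

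Among the genes above background, double mutant minus daf-12 mutant was -0.56 ± 0.37 in sra-10, -0.55 ± 0.41 in srb-16, -0.18 ± 0.43 in srab-14, -0.10 ± 0.40 in sre-4, -0.07 ± 0.36 in sre-18 and -0.02 ± 0.21 in srab-4 (SE). limma called none of these. The interval ran from -1.45 to 0.34 in srb-16 and from -0.48 to 0.45 in srab-4. On the higher side were sre-37 (0.38 ± 0.26), sre-25 (0.33 ± 0.19), sre-27 (0.24 ± 0.20) and sra-28 (0.23 ± 0.24), none called. The 2 genotypes did not overlap in 3 members: the double mutant was lower in sre-14 and sre-11, against 3.23% of all genes, and higher in srab-11, against 2.05%.

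**Figure D3:**
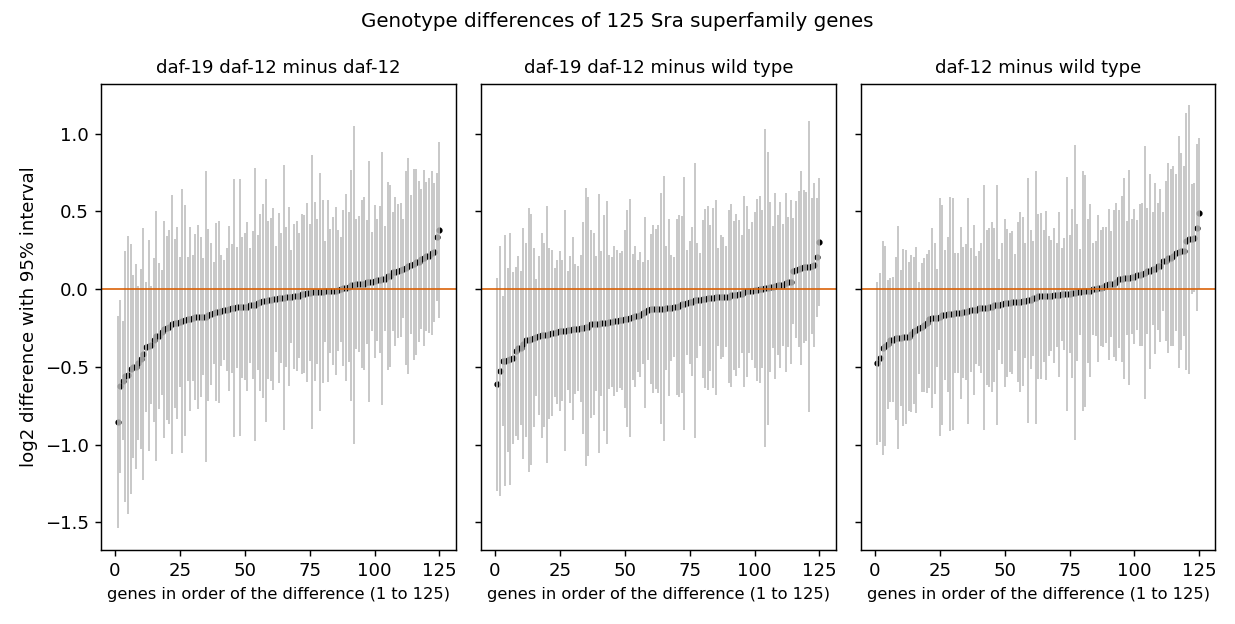
Log2 difference of each of the 125 genes (points) with its 95% interval (grey lines) in the 3 comparisons, in order of size within each panel. The points run from -0.85 to 0.38 (left, double mutant minus daf-12 mutant), from -0.61 to 0.30 (middle, double mutant minus wild type) and from -0.48 to 0.49 (right, daf-12 mutant minus wild type), and limma called none.

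The sign of the genotype difference was compared between the 2 sets of arrays. The counts of signs are descriptions, since most members were at background and the share over all genes was not counted. Double mutant minus daf-12 mutant was above 0 on replicates 1 and 2 and below 0 on replicates 3 and 4 in 24 members, and the reverse in 38, while 29 were above and 33 below 0 on both. The median was -0.03 on replicates 1 and 2 and 0.02 on replicates 3 and 4, where 71 and 57 members were below 0. Over all genes the medians were close to these, at -0.04 and 0.03, with 9638 and 7985 of 17118 genes below 0. On replicates 3 and 4 alone, limma called 6 of 125 members lower in the double mutant than in the daf-12 mutant (4.8%) and 0 higher, against 4.66% of all probe sets lower and 3.73% higher, so the members' share was near the background. They were sre-3 (-1.48, adjusted p = 0.0218), sra-10 (-1.36, adjusted p = 0.0244), srb-16 (-1.49, adjusted p = 0.0289), sre-6 (-1.32, adjusted p = 0.0372), srb-13 (-0.99, adjusted p = 0.0399) and sre-11 (-0.74, adjusted p = 0.0493), with n = 2 each. On replicates 1 and 2 the differences of the first 5 had the other sign, at 0.09, 0.59, 0.74, 0.76 and 0.21, and that of sre-11 was -0.25. There the double mutant had 1 array, and no test was made.

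Opposite signs were also seen in srab-14 and sre-4, both above background: srab-14 differed by 1.04 on replicates 1 and 2 and by -1.17 on replicates 3 and 4, and sre-4 by 1.20 and -0.85. By contrast sre-18 (-0.13 and 0.14) and srab-4 (-0.01 and -0.02) differed little on either set. Between the sets the difference changed by -2.22 in srb-16, -2.21 in srab-14, -2.08 in sre-6, -2.04 in sre-4 and -1.95 in sra-10. This change was tested in limma as an interaction added after the data were seen, in which the lone double mutant array of replicates 1 and 2 is assumed to vary like the other groups. None of the members was called (smallest adjusted p among members 0.113), and 11 members (8.8%) had an unadjusted p under 0.05, against 18.2% of all genes. The names in this and the preceding paragraph were chosen after their values were seen.

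**Figure D4:**
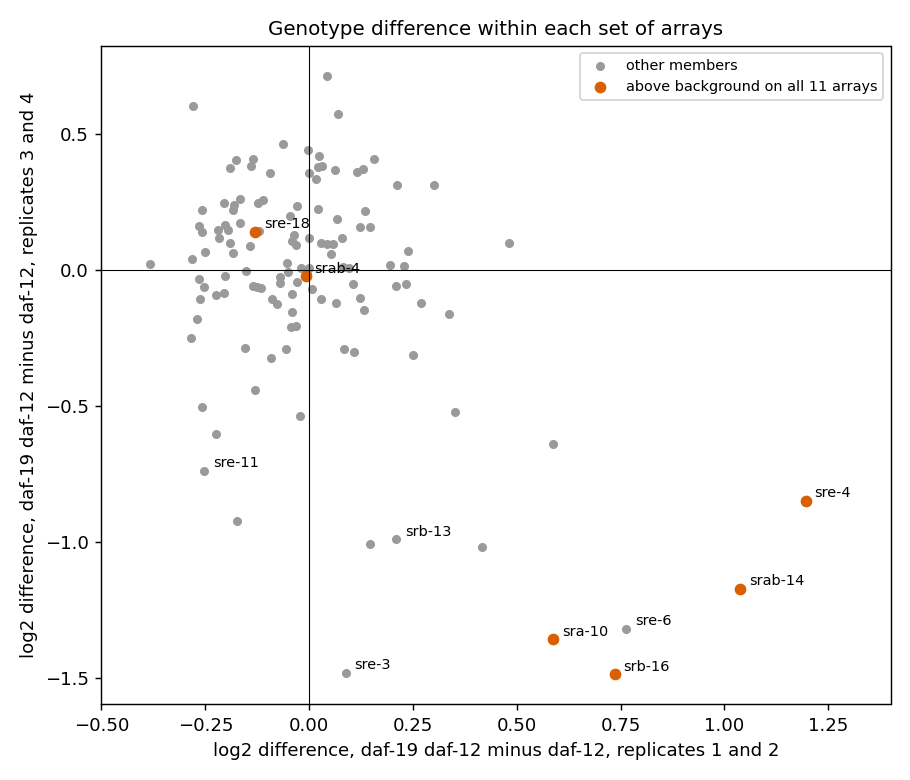
Log2 difference (double mutant minus daf-12 mutant) on replicates 1 and 2 (horizontal axis) and on replicates 3 and 4 (vertical axis) for the 125 genes. Genes srb-16, srab-14, sre-4 and sra-10, above background on all 11 arrays, lie at the lower right, with 0.59 to 1.20 on the first set and -1.49 to -0.85 on the second.

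Neuronal marker genes also differed between arrays of 1 genotype. Averaged as deviations from each gene's own mean, the 12 pan-neuronal genes stood at 0.02, -0.30 and -0.15 in the double mutant, -0.16, -0.39, 0.22 and 0.51 in the daf-12 mutant, and -0.18, 0.32, -0.23 and 0.36 in wild type. The 14 ciliated neuron genes, many of them DAF-19 targets, stood at -0.99, -1.04 and -1.12 in the double mutant, -0.32, -0.13, 0.91 and 1.18 in the daf-12 mutant, and 0.01, 0.73, 0.08 and 0.70 in wild type. Arrays 3 and 4 of the daf-12 mutant, which held the 2 highest values of srb-16, srab-14, sra-11 and srb-13, were also the highest for the ciliated neuron genes. The 11 regulators of sensory neuron fate stood at 0.19 and 0.11 on double mutant arrays 3 and 4, and at -0.09 and 0.01 on daf-12 arrays 3 and 4. The sperm genes (-0.54 and -0.76) and the early embryo genes (-0.36 and -0.16) had their lowest values on these daf-12 arrays. The part of these marker lists in the results was not tested.

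Most members had lower values on replicates 3 and 4. The median over the 125 genes was 4.73, 4.21 and 4.26 in the double mutant, 4.61, 4.76, 4.19 and 4.24 in the daf-12 mutant, and 4.83, 4.54, 4.59 and 4.38 in wild type. Of the 125 genes 106 (84.8%) were lower on replicates 3 and 4 than on 1 and 2, with a median change of -0.31. Among all genes with a mean at or below the threshold, 68.7% were lower, with a median of -0.14, and over all genes the median was -0.00. The 8 control probe sets for genes that were never spiked had medians of 3.86 to 4.18 over the 11 arrays. Their highest value was above the threshold of 5.41 on daf-12 arrays 1 and 2 (5.899 and 5.49). It was also above on wild type arrays 1 and 3 (5.635 and 5.48), and under it on the other arrays. Values just above the threshold thus lay within the range of these controls.

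**Figure D5:**
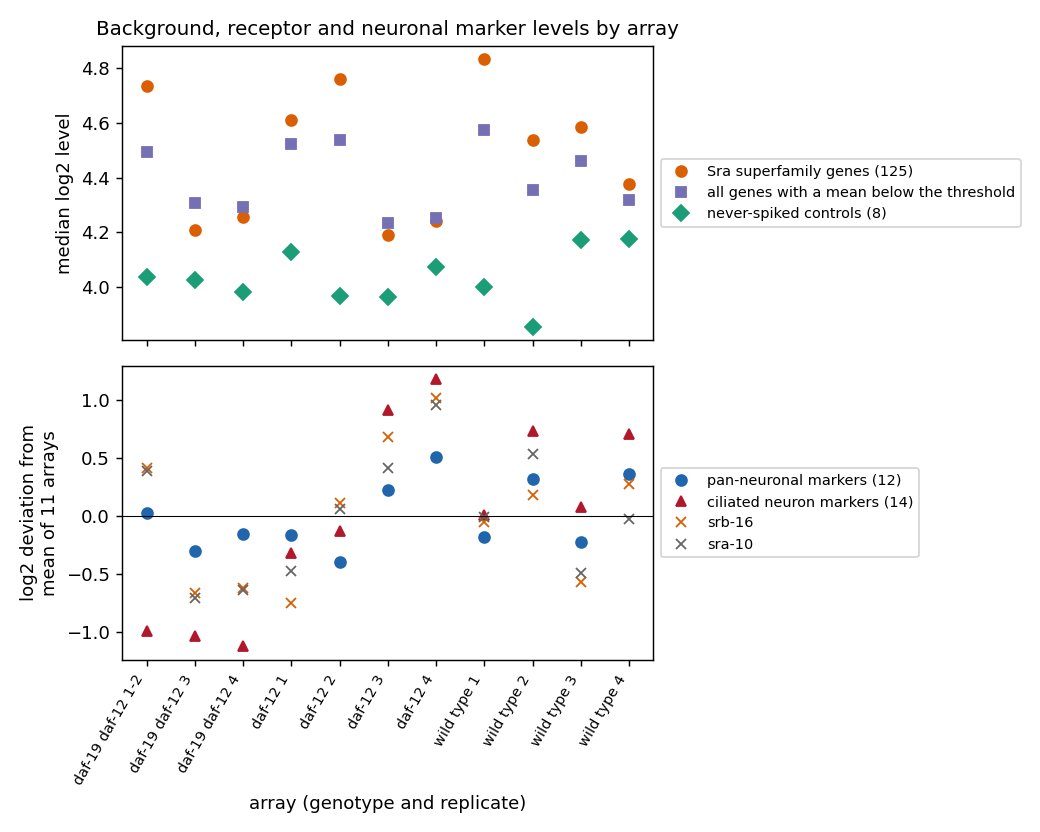
Upper panel: median log2 level on each array of the 125 genes, of all genes with a mean below the background threshold, and of 8 never-spiked controls. Lower panel: log2 deviation from the mean of 11 arrays of 2 marker lists and of srb-16 and sra-10. All of them are above 0 on daf-12 arrays 3 and 4 and below 0 on double mutant arrays 3 and 4. The genes sra-12 and sra-14, not drawn, had their lowest values on daf-12 arrays 3 and 4.

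Against wild type, the double mutant again gave no called member. limma called 0 of 125, where it called 26 of 22548 probe sets (0.115%), 0.102% lower and 0.0133% higher. The blocks for set and for replicate number gave 0 members, against 0.226% and 0.142%, and replicates 3 and 4 alone gave 0, against 0.874%. At an unadjusted p under 0.05, 1 member was lower and 0 higher, against 2.08% and 1.93% of all probe sets. This was sre-41, with 5.04, 4.56 and 4.50 in the double mutant and 5.43, 4.98, 5.20 and 5.04 in wild type, and a log2 difference of -0.46 ± 0.19 (SE, adjusted p = 0.9998). The median over the members was -0.13, against -0.03 over all genes, and 102 of 125 (81.6%) were below 0, against 55.7%. Medians were also -0.13 in Srg genes, -0.11 in Str genes and -0.11 in the srbc, srsx, srw and srz families. The lower median was thus not particular to the Sra superfamily. Within the sets the median over the members was 0.03 on replicates 1 and 2 and -0.20 on replicates 3 and 4, where 48 and 99 members were below 0. Over all genes it was -0.03 on both sets, with 9273 and 9201 of 17118 genes below 0. The sign of the members' median thus differed between the sets.

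The largest differences from wild type were again small. Lower in value in the double mutant were sre-3 (-0.61 ± 0.31), sre-6 (-0.52 ± 0.37) and srb-14 (-0.46 ± 0.37), and higher in value were sre-25 (0.30 ± 0.19), srb-7 (0.20 ± 0.17), srab-18 (0.16 ± 0.24) and sra-8 (0.15 ± 0.20), none called. Among the genes above background, srb-16 differed by -0.24 ± 0.41, sra-10 by -0.32 ± 0.37 and srab-14 by 0.14 ± 0.43. Arrays did not overlap on the lower side in 1 member, srb-18, against 2.82% of all genes, and on the higher side in 1, sre-25, against 1.6%. This comparison and the one with the daf-12 mutant share the double mutant arrays.

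Loss of daf-12 alone gave no called member either. limma called 0 of 125 in the daf-12 mutant against wild type, where it called 3 of 22548 probe sets (0.0133%), all higher. The same blocks gave 0 members, against 0.0222% and 0.00887%, and replicates 3 and 4 alone gave 0, against 0.0577%. At an unadjusted p under 0.05, 0 members were lower and 0 higher, against 1.09% and 1.93% of all probe sets. The median was -0.05, against -0.02 over all genes, and 119 of 125 intervals (95.2%) lay within a doubling in either direction, against 82.4% of all genes and with the same limit for members at background. The medians of Srg genes, Str genes and the srbc, srsx, srw and srz families were -0.06, -0.08 and -0.08. The extremes were srab-18 (0.49 ± 0.22), srb-13 (0.40 ± 0.24), sre-14 (0.33 ± 0.16) and sre-11 (0.32 ± 0.16) on the higher side. On the lower side they were sre-37 (-0.48 ± 0.24), sra-3 (-0.44 ± 0.25), sre-52 (-0.38 ± 0.31) and sra-38 (-0.37 ± 0.29). Arrays did not overlap in sre-11, higher (0.9% of all genes), and in srab-11, lower (0.678%). The median over the members was 0.06 on replicates 1 and 2 and -0.19 on replicates 3 and 4, against 0.02 and -0.05 over all genes.

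Genes that act with the receptors were measured beside them. Of 35 genes for receptor transport and signalling, 11 were above background on all 11 arrays and 7 on none. Those on all 11 included odr-4 and odr-8, which bring chemoreceptors to the cilium, and arr-1 (arrestin), while the channel subunit gene tax-2 was among the 7. In double mutant against daf-12 mutant embryos 0 of 35 were called by limma, against 0.0577% of all probe sets. The median was -0.27, against -0.02 over all genes. On the lower side 4 had an unadjusted p under 0.05 and on the higher side 1, against 2.39% and 2.53% of all probe sets. The 4 were the BBSome genes bbs-8 (-1.54), bbs-1 (-1.28) and osm-12 (-1.18) and the G protein alpha gene gpa-1 (-1.18), and the other was the channel gene tax-4 (0.74). Of these, osm-12 was above background on no double mutant array, and tax-4 on no daf-12 array. Against wild type 2 of 35 were called, both lower, bbs-8 (-1.72, adjusted p = 0.0191) and osm-12 (-1.60, adjusted p = 0.0106), where limma called 0.115% of all probe sets. Blocking on the set of arrays, limma called 1 of 35 against the daf-12 mutant and 3 against wild type. The shares of all probe sets were 0.213% and 0.226%. The 1 was bbs-8 (limma adjusted p = 0.0130), and the 3 were bbs-8, bbs-1 and osm-12. The replicate block called 0 and 1 of 35, against 0.0621% and 0.142% of probe sets. In the daf-12 mutant against wild type 0 of 35 were called, against 0.0133% of probe sets. Of the 35, 1 had an unadjusted p under 0.05, on the lower side, against 1.09% of probe sets lower and 1.93% higher. The median was 0.01, against -0.02 over all genes.

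On replicates 3 and 4 alone, limma called 8 of 35 (22.9%) lower than in the daf-12 mutant and 0 higher, against 4.66% and 3.73% of all probe sets. They were the BBSome genes bbs-8, bbs-1 and osm-12, and gpa-1, daf-11, ocr-1, gpa-8 and tax-2. Of these, gpa-8 and tax-2 were above background on 0 arrays and ocr-1 on 2, so the share is not one of detected signalling genes. As examples chosen after their values were seen, the G protein gene gpa-1 and the guanylyl cyclase gene daf-11 had opposite signs on the sets. Double mutant minus daf-12 mutant was 0.09 on replicates 1 and 2 and -2.28 on replicates 3 and 4 in gpa-1, and 1.11 and -1.40 in daf-11. The BBSome gene bbs-8 kept its sign, with -1.01 and -1.95. The gene odr-4 differed by -0.72 and -0.05.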

How the data were processed

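The authors deposited log2 expression values for 12 samples, 4 of each genotype, made with RMA, per the submitters' processing notes, without a version. All 12 columns were mapped, and 0 were left unmapped. The identical double mutant columns were averaged, which gave 11 arrays. Tests ran over 22548 probe sets, without 77 controls. Probe sets were named from the platform annotation, and all 125 members had the same symbol in the RefSeq table (WBcel235). Gene order was taken from that RefSeq table, and no DNA or protein sequence was used here.

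The model (limma 3.58.1, R 4.3.3; lmFit and eBayes) held the 3 genotypes and no block. Tests were two-sided, with Benjamini-Hochberg adjustment over all tested probe sets and calls at an adjusted p under 0.05. The fit was tested on simulated data. Deviations of same-numbered arrays from their group means correlated at 0.22 to 0.29 and 0.33 to 0.49 in both double mutant comparisons, where array 1-2 stood for both numbers, and at -0.03 to 0.67 in the third comparison. The numbers were therefore not taken as pairs over the whole design. Alternatives were blocks for the replicate number and the set of arrays, each set alone, arrays left out, other normalizations and other background thresholds. Genes named were those above background in any genotype, the 4 lowest and 4 highest differences of each comparison, and 11 genes with a published role or site. The members, lists and tests were chosen with earlier results of these data known.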

Additional observations from a re-analysis of the deposited data

Results flagged for a closer look

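In 70 groups of 4 arrays, over 34 named genes and the median of the members, 2 held an array far from the other 3, and chance alone marks about 1 group in 20. For sre-11 in the daf-12 mutant, array 2 at 5.33 stood above the others at 5.17 to 5.18, a gap that is small in size. For srb-14 in wild type, array 1 at 5.56 stood above the others at 4.47 to 4.60. The gene srb-14 passed the background threshold on that array alone.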

How the results depend on the processing

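The count of called members was 0 in 63 of 64 other fits over the 3 comparisons, with the exception of 6 on replicates 3 and 4 alone (double mutant minus daf-12 mutant). A replicate block gave 0 called members in each comparison, whichever number array 1-2 was given, with medians of -0.04 or -0.00 against the daf-12 mutant and -0.12 or -0.08 against wild type for the double mutant, and -0.05 for the daf-12 mutant. The set of arrays as a block gave 0 called members too. Replicates 1 and 2 were not tested where the double mutant had 1 array. No median moved by more than the spread between arrays (0.25). Of 2169 values of named genes, 2117 moved by less than 1 SD, 46 by more, and 6 became called. The background counts depended on the threshold. In the double mutant, the daf-12 mutant, wild type and any genotype, a log2 value of 6 gave 2, 3, 2 and 3, a value of 7 gave 0 in each, and each array's median gave 2, 1, 2 and 2. The highest control value gave 5 in the double mutant. Group means in place of every array gave 12 in the double mutant, 14 in the daf-12 mutant, 16 in wild type and 19 in any genotype, so the order of the genotypes depended on this rule. Chosen after seeing the data, replicates 1 and 2 alone gave 21, 18, 13 and 22, and replicates 3 and 4 alone gave 14 in any genotype; fewer arrays had to pass. Leaving out single arrays gave 7 to 11 in wild type, the 11 without array 4. Each member had 1 probe set, so averaging probe sets or leaving out shared ones changed no count.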

Other observations

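Among the probe sets with several genes, those that carry a family name were not counted as members. The one for F10G7.12 and sre-39 lay between 4.47 and 5.47 and passed the threshold on 1 of 11 arrays. The one for sre-5 and otpl-1 (4.01 to 4.94) and the one for srb-9 and srb-8 (3.19 to 3.81) passed on 0.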
